A study of Mus musculus with 5 samples.

Results

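CpG island regions with a single promoter made up 1813 of the 3885 genomic regions in which enrichment was called in chromatin immunoprecipitation followed by sequencing (ChIP-seq) of mouse hearts. They were chosen as the regions for which the authors' deposited table counts at least 1 CpG island and exactly 1 promoter, so the choice rests on annotation and not on signal. Of these, 1792 overlapped 1 CpG island and 21 overlapped 2, among the latter the regions at the metabolic regulators Esrra and Klf15. Just outside the rule lay 785 CpG island regions with 2 promoters, 152 CpG island regions with none, and 348 regions with 1 promoter and no CpG island.

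The study profiled whole hearts of male C57/Bl/6J mice, 12 weeks old, fed a diet with 10 or 60 kcal% fat for 4 days before surgery and 1 week after it. The surgery was transverse aortic constriction (TAC), which loads the heart with pressure, or a sham operation. Each of the 4 groups (sham and TAC on 10% fat, sham and TAC on 60% fat) gave 1 library, labelled a pool of 3 hearts, so there was no replicate and no test between groups could be made. The series title and antibody label name ACAA2, whereas the protocol text names antibodies against the histone marks H3K9bu and H3K9ac, and a pooled input is listed that was not analysed here. Of 10 cardiomyocyte marker genes, 4 were the assigned gene of any of the 3885 regions, against 0 of 7 fibroblast, 1 of 7 endothelial, 1 of 6 macrophage and leukocyte, 0 of 6 smooth muscle and 1 of 4 adipocyte markers. None of these 6 lists had a gene among the CpG island regions with 1 promoter. Of all protein-coding genes 20.8% had any region and 7.53% had such a region, so lists this short say little about the cell types in the sample. In whole heart, a different mix of cell types and a different signal per cell cannot be told apart.

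CpG islands are stretches of DNA rich in unmethylated CG dinucleotides that cover the start sites of most broadly expressed genes and of many regulated ones. Their chromatin is usually open and carries acetylated histones when the gene is active. ACAA2 is the mitochondrial 3-ketoacyl-CoA thiolase, the enzyme of the last step of fatty acid beta-oxidation, which releases acetyl-CoA, the donor for acetylation.

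The sequences below are bases before the start site that lie inside the immunoprecipitated regions of 7 genes, each the highest-ranked named gene of its kind with at least 150 such bases, picked after seeing the data. Sde2 and Stat3 stand for high signal and for calls in all 4 libraries, Chd9 for a region higher after TAC on 10% fat, Ern1 and Sptssa for higher and lower after TAC on 60% fat, Dcaf10 for lower on 60% fat in sham hearts and Piezo1 for lower on 60% fat in TAC hearts. They are from RefSeq, build GRCm38.p6 (mm10), read 5′ to 3′ on the strand of the gene, and the CG dinucleotides are in capitals.
Sde2: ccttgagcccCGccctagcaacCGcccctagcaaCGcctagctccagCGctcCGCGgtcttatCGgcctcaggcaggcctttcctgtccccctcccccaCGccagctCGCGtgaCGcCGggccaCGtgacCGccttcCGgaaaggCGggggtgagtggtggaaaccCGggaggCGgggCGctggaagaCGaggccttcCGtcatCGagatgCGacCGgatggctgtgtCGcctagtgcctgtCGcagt
Stat3: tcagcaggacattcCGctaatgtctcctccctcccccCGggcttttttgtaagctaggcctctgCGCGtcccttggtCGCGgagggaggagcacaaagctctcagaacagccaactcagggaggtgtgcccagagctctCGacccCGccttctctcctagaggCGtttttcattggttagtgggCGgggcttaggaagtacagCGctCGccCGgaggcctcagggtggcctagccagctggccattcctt
Chd9: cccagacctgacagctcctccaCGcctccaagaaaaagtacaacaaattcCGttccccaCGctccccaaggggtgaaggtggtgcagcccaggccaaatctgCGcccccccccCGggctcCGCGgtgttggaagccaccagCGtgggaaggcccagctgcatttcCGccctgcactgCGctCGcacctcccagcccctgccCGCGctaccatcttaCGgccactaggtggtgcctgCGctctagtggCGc
Ern1: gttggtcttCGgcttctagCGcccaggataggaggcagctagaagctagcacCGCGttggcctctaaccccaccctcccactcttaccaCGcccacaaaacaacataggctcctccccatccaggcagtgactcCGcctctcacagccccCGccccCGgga
Sptssa: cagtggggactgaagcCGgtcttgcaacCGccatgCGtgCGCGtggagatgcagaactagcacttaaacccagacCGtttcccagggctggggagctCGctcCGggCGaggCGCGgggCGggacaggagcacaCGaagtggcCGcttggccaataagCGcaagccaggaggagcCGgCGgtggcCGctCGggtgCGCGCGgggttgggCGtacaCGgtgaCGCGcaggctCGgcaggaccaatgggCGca
Dcaf10: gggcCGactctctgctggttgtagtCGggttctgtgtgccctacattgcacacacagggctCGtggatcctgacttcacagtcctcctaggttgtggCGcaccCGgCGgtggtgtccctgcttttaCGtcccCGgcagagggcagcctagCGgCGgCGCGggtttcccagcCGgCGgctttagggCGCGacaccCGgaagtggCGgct
Piezo1: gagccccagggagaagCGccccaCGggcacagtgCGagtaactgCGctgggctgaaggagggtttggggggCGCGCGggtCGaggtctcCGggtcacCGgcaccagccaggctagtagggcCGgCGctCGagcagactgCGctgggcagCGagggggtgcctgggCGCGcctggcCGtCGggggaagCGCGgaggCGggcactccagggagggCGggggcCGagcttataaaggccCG

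The stretches lie for Sde2 at chr1:180850901-180851148 on the plus strand with 26 CG dinucleotides, for Stat3 at chr11:100939541-100939790 on the minus strand with 13 CG dinucleotides and for Chd9 at chr8:90828585-90828834 on the plus strand with 16 CG dinucleotides. The others are for Ern1 at chr11:106487886-106488046 on the minus strand with 8 CG dinucleotides and for Sptssa at chr12:54656573-54656822 on the minus strand with 28 CG dinucleotides. The last are for Dcaf10 at chr4:45341893-45342100 on the plus strand with 18 CG dinucleotides and for Piezo1 at chr8:122551342-122551579 on the minus strand with 25 CG dinucleotides. The stretch of Sptssa has 28 CG dinucleotides in 250 bases and that of Stat3 13 in as many. GGGCGG, in either strand, is in each except that of Dcaf10, which holds CCGGAAG 15 bases before the start, and Piezo1 alone of the 7 holds TATAAA, 24 bases before the start. Region coordinates elsewhere are as deposited, in mm10, and the sources used here do not say whether their starts count from 0 or 1.

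The regions sat on and just before the start sites. The distance from a region's midpoint to the start of its nearest gene had a median of -77 bp, negative meaning upstream, with quartiles of -235 and 62 bp. By comparison the median was -27.5 bp in the 898 CpG island regions with several promoters and -200 bp in the 497 regions with promoters and no CpG island. The midpoint lay within 1000 bp of the start in 93.9% of the regions, against 97.8% and 62.4% in those classes, and the start itself fell inside the region in 52.5%, against 67.1% and 23.5%. The authors' table placed 1173 of the midpoints upstream of the gene, 633 inside it and 7 downstream, and exon, intron or UTR was not assigned here. The promoter count itself equalled a count of nearby start sites in 99.0% of all regions. A start site was counted where the midpoint lay at most 7500 bp upstream or 2500 bp downstream of it. Median length was 315 bp, from 203 to 1344 bp, and 17 of the regions were on chromosome X.

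**Figure D1:**
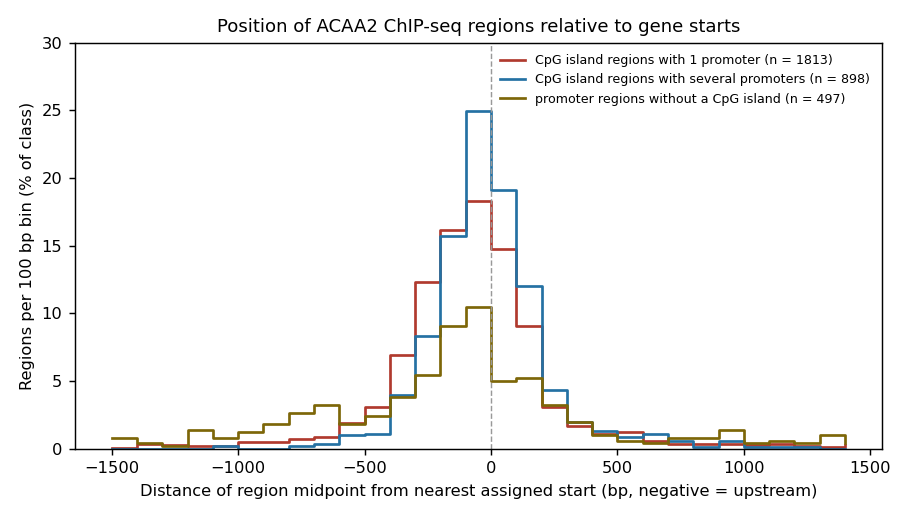
Percent of regions (y axis) per 100 bp of distance between the region midpoint and the nearest start site (x axis, in bp, negative upstream), for CpG island regions with 1 promoter, CpG island regions with several promoters, and promoter regions without a CpG island. The bin just upstream of the start held 18.3%, 24.9% and 10.5% of the 3 classes, and 3.64%, 1.67% and 31.2% lay outside the plotted range.

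The regions named 1688 different nearest genes. Of these, 1573 had 1 region, 106 had 2, 8 had 3 and 1 had 4. A single gene symbol was assigned to 1159 of the regions, 2 symbols to 533 and 3 or more to 121, so where several symbols stand the signal cannot be given to 1 gene.

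The deposited average signal, the fragment pileup averaged over a region, was of the same order in all libraries and lowest in sham on 60% fat. Its median over the 1813 regions was 11.75 in sham and 11.1 in TAC on 10% fat, and 7.5 in sham and 9.75 in TAC on 60% fat. The quartiles were 8.71 and 14.5, 8.13 and 13.9, 5.41 and 9.95, and 7.14 and 12.4 in the same order. With 224 bp fragments this corresponds to a median of 16.5, 15.8, 10.9 and 14.0 estimated fragments a region, so a single region rests on few molecules. Over all regions the libraries summed to 75313, 68963, 49593 and 62559 estimated fragments. The sources used here do not say whether libraries were scaled to each other, so depth and signal cannot be told apart. Every signal below is given in the order sham and TAC on 10% fat, then sham and TAC on 60% fat.

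The region with the highest mean signal, 23.6, was 156 bp upstream of Rps26, a protein of the small ribosomal subunit, and is also assigned to Ikzf4. Its signals were 28.3, 23.7, 23 and 19.6, high in every library. Among regions with 1 gene symbol the order of mean signal was Dgat2, Sde2, BC005537, Stat3, Tcf3, Ube2f, Lrpprc, Pim3, Hnrnph1 and Utp3. At Dgat2, which makes triglycerides from diacylglycerol (chr7:99182722-99183076), the signals were 25.8, 13.9, 16.8 and 22.5, lowest in TAC on 10% fat. At Sde2, a factor of genome maintenance and splicing, they were 27.5, 18.2, 14.2 and 19, highest in sham on 10% fat. At Stat3, the transcription factor of cytokine signalling in cardiomyocytes, they were 20.1, 24.7, 16.1 and 14.7, highest in TAC on 10% fat. At Lrpprc, which stabilises mitochondrial messenger RNAs, sham on 60% fat at 17.3 lay above sham on 10% fat at 14.5, whereas at Tcf3, an E-protein transcription factor, sham on 60% fat at 10.2 lay well below the other libraries, at 18.7 to 22.9. At Utp3, a ribosome biogenesis factor, both 60% fat libraries, at 13.3 and 8.90, lay below both 10% fat libraries, at 19.3 and 23.5.

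**Figure D2:**
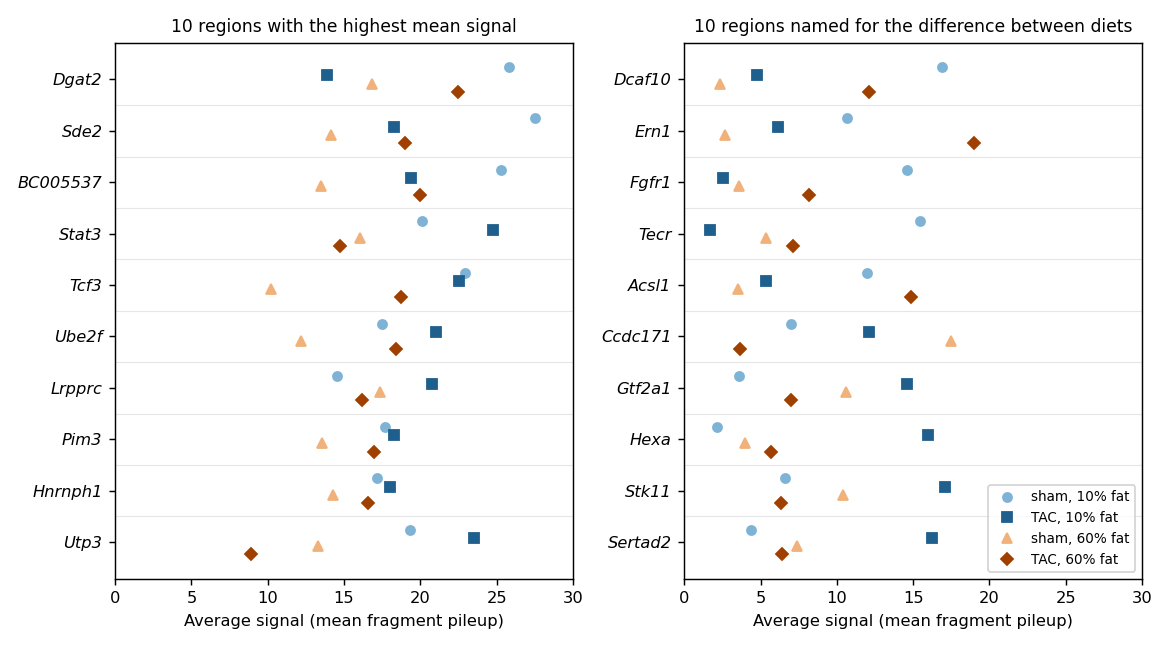
Average signal (x axis, deposited pileup units) in the 4 libraries, 1 plot symbol per library. Only regions with 1 gene symbol are shown: the 10 with the highest mean signal and 10 named for the difference between diets of the TAC-to-sham ratio. The latter are the 5 largest in each direction among regions whose highest library reached its median over all regions. The high-signal regions stay between 8.90 (Utp3) and 27.5 (Sde2) in every library, while the others move between low and high, as at Dcaf10 from 2.33 to 16.9.

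Calls differed far more between libraries than the signal did. The peak caller had called 57.1% of the regions in sham on 10% fat, 50% in TAC on 10% fat, 16.7% in sham on 60% fat and 36.8% in TAC on 60% fat, against 57.3%, 46.8%, 15.4% and 35.9% of all 3885 regions. A region was called in 1 library in 1100 cases, or 60.7% (63.8% of all regions), in 2 in 410 cases, 22.6% (21%), in 3 in 220 cases, 12.1% (11.1%), and in all 4 in 83 cases, 4.58% (4.12%). In CpG island regions with several promoters 5.90% were called in all 4, and in promoter regions without a CpG island 2.62%. These shares were not tested against each other. In sham on 10% fat the median signal was 13.9 where a region was called and 8.20 where it was not, so regions without a call still carried signal.

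Among the 83 regions called in all 4 libraries, those with 1 symbol and the highest mean signal were, besides BC005537, Stat3, Lrpprc and Hnrnph1, a splicing factor, Cltc, Tsc1, Ostc, Mef2a, Gtl3 and Trpm7. Signals at Cltc, the clathrin heavy chain, were 21, 16.6, 12.9 and 14.3, and at Tsc1, a brake on mTOR signalling, 14.5, 21.1, 11.9 and 15.6. At Trpm7, an ion channel with a kinase domain, they were 17.7, 20, 11.5 and 11.2. At all 3 genes both 10% fat libraries were above sham on 60% fat. Over the 83 regions the TAC-to-sham log2 ratio had a median of -0.01 on the 10% and 0.13 on the 60% fat diet, and the diet medians were -0.33 in sham and -0.22 in TAC.

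The first comparison asks how the signal differed after TAC in hearts on the 10% fat diet. The log2 ratios, here and below taken after adding 1 to each signal, which understates folds at low signals, had a median of -0.08 (95% interval over regions -0.13 to -0.04). Such intervals of medians, here and below, cover the spread over regions within 1 pair of libraries. They leave out variation between libraries and their scaling, so they say nothing on a difference between groups. At least 2-fold higher in TAC were 127 regions, 7.005%, against 7.98% of all regions, and at least 2-fold lower were 171 regions, 9.43%, against 11.7%. Both shares lay below the background of all regions. In promoter regions without a CpG island 12.7% were higher and 15.1% lower, in regions with a shorter median length of 274 bp. An interval for the ratio of each region, from the counting error of its estimated fragments only, lay above 0 as well in 71 of the higher regions, 3.92% (4.74% of all), and below 0 in 98 of the lower, 5.41% (7.05%). With the ratios centred on the median of all regions, -0.14, 187 were higher and 108 lower, and after quantile normalization 178 and 119, so the side on which more regions lay depends on the scaling. Centring and quantile normalization bring the whole set of regions to near balance by construction, so the counts after them, here and below, are given for the scaling and not as a result about these regions.

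The named regions furthest above sham were at Ep300 and Hexa. At Ep300, the histone acetyltransferase p300 (chr15:81586373-81586616, midpoint 280 bp inside the gene), the signals were 1.67, 14.6, 4.43 and 8.14. TAC on 10% fat was the high library, and the log2 ratio was 2.55 (counting interval 0.91 to 6.16), with about 1.81 estimated fragments in sham. At Chd9, a chromatin-remodelling helicase, the signals were 2.7, 14.3, 6.2 and 13.8 and the ratio was 2.05 (counting interval 0.74 to 4.33). Only the sham library on 10% fat was below 6 at Chd9, and the TAC libraries were alike. At Gtf2a1, a subunit of the general factor TFIIA, the signals were 3.57, 14.6, 10.6 and 7, and at Sertad2, a transcriptional coregulator, 4.38, 16.2, 7.38 and 6.38. In both, TAC on 10% fat was the highest library and sham on 10% fat the lowest. The others named were Hexa, a lysosomal hexosaminidase subunit, Wdr41, Hibadh, an enzyme of valine breakdown, and Nod1, a sensor of bacterial peptidoglycan, with log2 ratios of 2.44, 2.23, 2.18 and 1.60.

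Furthest below sham was Tecr, the enzyme of the last step of very-long-chain fatty acid elongation (chr8:83594754-83595040). Its signals were 15.4, 1.71, 5.33 and 7.11, and the log2 ratio was -2.60 (counting interval -6.46 to -1.28). Sham on 10% fat was the one high library there. The same held at Fgfr1, a receptor for fibroblast growth factors, with signals of 14.6, 2.57, 3.57 and 8.14 and a ratio of -2.12 (counting interval -4.75 to -0.50), and at Rnf111, a ubiquitin ligase of TGF-beta signalling, with 16.4, 3.9, 3.78 and 3.3. At Xpr1, a phosphate exporter, the signals were 15.2, 3.83, 4.67 and 2.17. The remaining regions, at Lrrc58, D15Ertd621e, D10Wsu102e and Dcaf10, a substrate receptor of a ubiquitin ligase, had log2 ratios of -2.08, -1.79, -1.72 and -1.63.

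The second comparison asks the same on the 60% fat diet, where most regions lay above sham. The median log2 ratio was 0.32 (0.29 to 0.36), the same as the median of all regions. At least 2-fold higher were 277 regions, 15.3%, against 15.5% of all regions, and 48, 2.65%, were lower, against 3.11%. The counting interval also excluded 0 in 169 of the higher, 9.32% (8.67% of all), and in 19 of the lower, 1.05% (0.978%). Centred on the all-region median the counts were 121 and 131, and after quantile normalization 124 and 121.

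Of the named regions, the one furthest above sham was at Degs1, which introduces the double bond of ceramide (chr1:182282628-182282873). Its signals were 7.57, 7.86, 1.57 and 16, and the log2 ratio was 2.73 (counting interval 1.11 to 6.32). Sham on 60% fat was low and TAC on 60% fat high, with both 10% fat libraries between. At Ern1, the endoplasmic reticulum stress sensor IRE1, the signals were 10.7, 6.17, 2.67 and 19 and the ratio was 2.45 (counting interval 1.11 to 6.32). At the upstream region of Dnajb1, an Hsp40 co-chaperone, they were 4.17, 6.83, 2.5 and 13.8. TAC on 60% fat was the highest library at all 3. At Mgat5, which branches N-glycans, the log2 ratio was 2.04. At Endod1, Hint3 and Dscr3 they were 2.40, 2.21 and 2.01, and Hint3 had as high a signal in TAC on 10% fat, 18.6, as on 60% fat, 18.4.

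In the opposite direction, sham on 60% fat was the highest library at 7 of the 8 named regions. At Ccdc171 the signals were 7, 12.1, 17.5 and 3.62, and the log2 ratio was -2.000 (counting interval -4.46 to -0.90). At Sptssa, the small subunit of serine palmitoyltransferase at the start of sphingolipid synthesis, they were 5.23, 5.46, 11.5 and 2.92, with a ratio of -1.68 (counting interval -3.83 to -0.62). At Lars2, the mitochondrial leucyl-tRNA synthetase, they were 7.17, 4.33, 11.5 and 3.25. TAC on 60% fat was the lowest library at each of the 3. Ruvbl1, an ATPase of chromatin remodelling, Mtmr14, a phosphoinositide phosphatase, Mex3c, an RNA-binding ubiquitin ligase, Cebpg, a bZIP transcription factor, and Erap1, which trims peptides for MHC class I, had log2 ratios from -1.30 (Erap1) to -1.44 (Ruvbl1). Mex3c was the exception, with 13.4 in sham on 10% fat and 13.1 in sham on 60% fat.

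**Figure D3:**
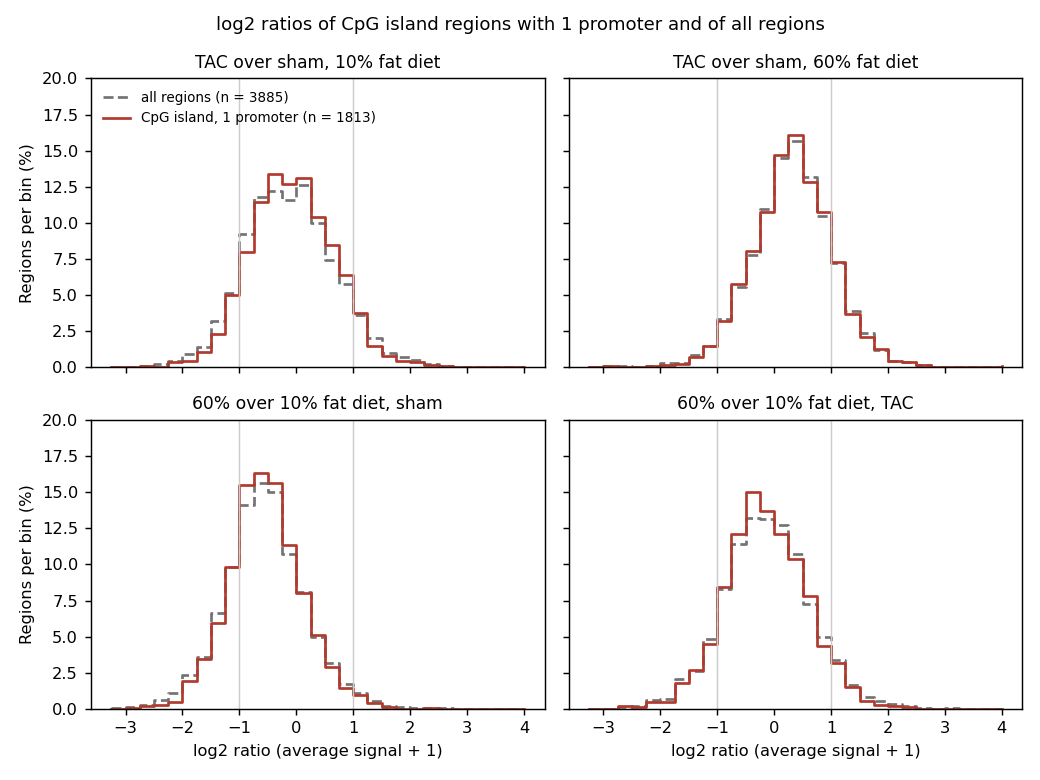
Share of regions (y axis, percent) by log2 ratio of average signal plus 1 (x axis, bins of 0.25) in 4 comparisons, for CpG island regions with 1 promoter and for all 3885 regions, with lines at 2-fold. The outlines of the 2 sets nearly coincide, with medians for the CpG island regions of -0.08 and 0.32 for TAC over sham on 10% and 60% fat and of -0.57 and -0.18 for 60% over 10% fat in sham and TAC.

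The third comparison set the diets side by side in sham-operated hearts and shares a library with each of the first 2. The signal was lower on 60% fat at most of the regions, and the log2 ratios had a median of -0.57 (-0.60 to -0.53), as in all regions, also -0.57. At least 2-fold lower were 406 regions, 22.4%, against 24.8% of all regions, and 27, 1.49%, were higher, against 2.01%. The counting interval also excluded 0 in 268 of the lower, 14.8% (17.2%), and in 7 of the higher, 0.386% (0.695%). Centred on the all-region median 132 were higher and 93 lower, and after quantile normalization 122 and 96.

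The few higher regions were therefore those that went against the bulk. At Cebpg (chr7:35056813-35057016) the signals were 1.83, 2.5, 13.5 and 4.83, and the log2 ratio was 2.36 (counting interval 0.42 to 5.79), the only one above 2 among the regions named for this comparison. At Snai1, a transcription factor of epithelial-mesenchymal transition, they were 7.43, 3.14, 17.1 and 8.43, and at Nudt9, an ADP-ribose pyrophosphatase, 7.43, 7.29, 16 and 17.1. Both had the 60% fat library above the 10% fat library in TAC hearts as well. Ccdc171, Dcaf8, Lipt2, which attaches lipoate to mitochondrial enzymes, Mga, a MAX-binding transcription factor, and Tceb3, elongin A, had log2 ratios from 1.11 (Tceb3) to 1.21 (Ccdc171).

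Of the regions lower on 60% fat, the named one with the lowest ratio was at Spty2d1, a histone chaperone, where the signals were 13, 7.86, 1.17 and 5, and the log2 ratio was -2.69 (counting interval -9.003 to -0.83). At Rad21, a cohesin subunit, they were 14.6, 9.86, 2.14 and 6.29, with a ratio of -2.31 (counting interval -6.08 to -0.80). At Exoc1, a subunit of the exocyst, they were 12.3, 11.6, 2.2 and 10.6. The low library was sham on 60% fat at all 3, and at Exoc1 the other libraries differed little. Dcaf10, D10Wsu102e, the histone variant gene H2afv, Lztfl1, a regulator of the BBSome, and Slc25a53, a mitochondrial carrier, had log2 ratios from -1.96 (Slc25a53) to -2.42 (Dcaf10).

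The fourth comparison set the diets side by side in TAC hearts. The median log2 ratio was -0.18, with all regions at -0.14. At least 2-fold lower on 60% fat were 186 regions, 10.3%, against 11.3%, and 105, 5.79%, were higher, against 7%. The counting interval also excluded 0 in 128 of the lower, 7.06% (7.03%), and in 52 of the higher, 2.87% (3.84%). Centred on the all-region median 152 were higher and 135 lower, and after quantile normalization 149 and 144.

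The named region furthest below was 1095 bp inside Mef2a, a transcription factor of muscle genes, with signals of 1.67, 12.5, 2.33 and 1.17 and a log2 ratio of -2.64 (counting interval -8.89 to -0.68). TAC on 10% fat was the only library with signal above 3. At Piezo1, a stretch-activated cation channel (chr8:122551341-122551651), the signals were 6.22, 13.6, 5.6 and 2.6 and the ratio was -2.02 (counting interval -4.26 to -0.66), and at Tjp1, the tight junction protein ZO-1, they were 5.83, 13.5, 4.5 and 2.17. At both, TAC on 10% fat was above 13 and the others were below 7. Dcaf8, Bloc1s6, a subunit of the BLOC-1 complex, Rnf13, Elovl5, a fatty acid elongase, and Hibadh had log2 ratios from -1.88 (Hibadh) to -2.42 (Dcaf8).

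Of the regions higher on 60% fat in TAC hearts, Fam43a had a log2 ratio of 2.07 and Il3ra, a receptor chain for interleukin 3, one of 1.83. At Ddx52, a helicase of ribosome biogenesis, the signals were 5.57, 4.57, 4.43 and 15.7, and the log2 ratio was 1.59 (counting interval 0.26 to 3.96). At Prpf4b, a splicing kinase, they were 10.8, 4.08, 3.83 and 14.1, and at Exosc9, an RNA exosome subunit, 4.29, 4.14, 5.71 and 12.6. TAC on 60% fat was the highest library in all 3. Tmem170 and Ern1 had log2 ratios of 1.56 and 1.48.

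The 2-fold differences were concentrated in regions called in few libraries. Of the 127 regions higher in TAC on 10% fat, 121 had been called in the TAC library and not in sham, 95.3% against 92.3% of all such regions, and of the 171 lower, 153 in sham and not in TAC, 89.5% against 89.7%. On 60% fat this held for 199 of 277 higher regions, 71.8% against 68.9%, and for 30 of 48 lower ones, 62.5% against 55.4%. Between diets it held for 336 of 406 lower regions in sham, 82.8% against 84.7%, and 168 of 186 in TAC, 90.3% against 85.2%, and for 17 of 27 and 89 of 105 higher ones, 63.0% and 84.8% against 67.9% and 84.2%. Since a call and a signal come from the same fragments, these counts are no separate evidence. Among regions called in 1, 2, 3 and 4 libraries, the share 2-fold higher in TAC on 10% fat was 10.2%, 2.68%, 1.82% and 0%, against 11.3%, 3.06%, 1.40% and 0% of all regions, and the share 2-fold lower in sham on 60% fat was 26.2%, 20.5%, 15.0% and 1.20%, against 29.4%, 21.0%, 13.7% and 2.5%.

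**Figure D4:**
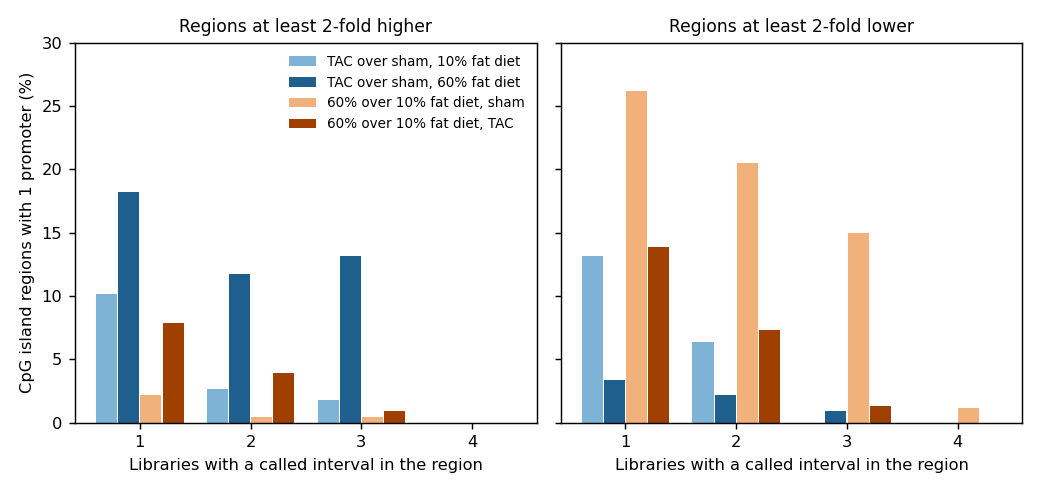
Percent of CpG island regions with 1 promoter that were at least 2-fold higher or lower (y axis), by the number of libraries in which the region was called (x axis, 1100, 410, 220 and 83 regions), in 4 comparisons. Of the 83 regions called in all 4 libraries, the only one at 2-fold in any comparison was lower on 60% fat in sham hearts, at the predicted gene Gm10910.

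The TAC-to-sham ratios of the diets had little in common across regions. They were 2-fold higher on both diets in 19 regions, 15.0% of those higher on 10% fat and 6.86% of those higher on 60% fat, against 17.1% and 8.77% over all regions. They were lower on both in 7, or 4.09% and 14.6%, against 5.71% and 21.5%. In 22 regions the ratio was 2-fold lower on 10% fat and 2-fold higher on 60% fat, and in 0 the reverse, against 69 and 7 of all 3885 regions. Across the 1813 regions Pearson's r was 0.06 and Spearman's rho 0.05, against 0.04 and 0.03 over all regions. The diets' ratios come from different libraries, and regions share the depth of each library, so no p is given. Counting error also lowers such correlations, and how far was not tested. Its median was 0.53 log2 units a region on 10% fat, where the ratios had quartiles of -0.58 and 0.415. On 60% fat it was 0.60, with quartiles of -0.13 and 0.77.

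Among the 19 higher on both diets were Chd9, Nod1, Ubtf, a factor of ribosomal RNA transcription, Setdb1, a histone H3K9 methyltransferase, Myh9, non-muscle myosin, and Eif3d, a translation initiation factor. At Rassf3, of the Ras association domain family, the signals were 2.73, 12.2, 2.18 and 8.91 and the log2 ratios 1.82 and 1.64. At Slc25a30, a mitochondrial carrier, they were 3.89, 12.4, 2.89 and 11.2, and at Ier2, an immediate early gene also assigned Nacc1, 6.14, 15.4, 4.57 and 13.4 in the region at -1199 bp. Both TAC libraries were above both sham libraries at Rassf3, Slc25a30 and Ier2. Among the 7 lower were Mlycd, the malonyl-CoA decarboxylase that relieves the block on mitochondrial fatty acid import, with 15.4, 6.64, 9.43 and 3, Tomm5, of the mitochondrial import pore, with 10.0, 3.67, 14.7 and 6.11, and Cyth3, an ARF exchange factor, with 12.4, 4.57, 4.21 and 1.39. At Mlycd and Tomm5 both TAC libraries lay below both sham libraries. At Cyth3 the TAC library on 10% fat, 4.57, was close to sham on 60% fat, 4.21.

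**Figure D5:**
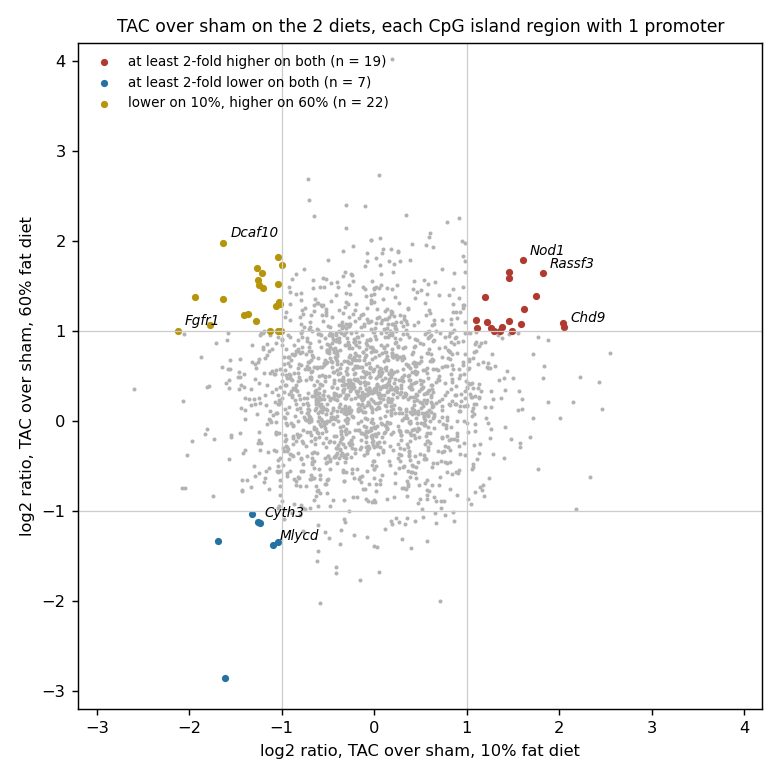
TAC-to-sham log2 ratio on the 60% fat diet (y axis) against the 10% fat diet (x axis) for the 1813 regions, 1 point each. The 19 regions higher and 7 lower on both diets and the 22 lower on 10% and higher on 60% fat are coloured, some are named, and the cloud shows little relation (r 0.06).

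The difference between the diets' TAC-to-sham log2 ratios exceeded 1 in 468 regions, 25.8% (28.9% of all), and was below -1 in 144, 7.94% (8.7%). Its median was 0.40, against 0.45 over all regions. Among the regions with 1 symbol named for this difference, it was widest upward at Dcaf10. The signals were 16.9, 4.78, 2.33 and 12.1, with ratios of -1.63 and 1.98 and a difference of 3.61. Sham on 10% fat and TAC on 60% fat were the high libraries there. The same 2 libraries were the highest at Acsl1, the acyl-CoA synthetase that activates fatty acids for oxidation, with 12, 5.33, 3.5 and 14.8 and a difference of 2.85. Downward among the regions so named it was widest at Ccdc171, at -2.71, followed by Gtf2a1, Hexa, Stk11 and Sertad2. At Stk11, the kinase LKB1 that activates AMPK, the signals were 6.62, 17.1, 10.4 and 6.31, and TAC on 10% fat was the high library.

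Where a gene had 2 regions, they shared a side no more often than not in any of the 4 comparisons. For the 106 genes with 2 regions, which lay a median of 145 bp apart, both were on the same side of the median of the 1813 regions in 52 pairs, 49.1%, for TAC over sham on 10% fat. The numbers were 45, 47 and 51, or 42.5%, 44.3% and 48.1%, for TAC over sham on 60% fat and the diets in sham and TAC. The region 175 bp upstream of Mef2a, called in all 4 libraries, had signals of 20.1, 17.7, 10.5 and 13.5, with no low library, unlike the region inside the gene. At Dcaf8, another ubiquitin ligase receptor, the region 102 bp upstream had 6.83, 8.33, 16.3 and 13.5 and that 618 bp inside 5.86, 13.3, 2.86 and 1.67. The upstream region was highest in sham on 60% fat and the inner in TAC on 10% fat. The 8 genes with 3 regions were Brd2, H2afv, Hnrnpl, Klf9, Midn, Ptma, Suv420h1 and Wee1. At Brd2, a reader of acetylated histones, the region at the start had 16.5, 18.6, 10.3 and 14.3, and the regions 450 and 1160 bp inside had 13.2, 8.75, 6 and 7.25 and 14.1, 14.8, 7.5 and 11. Sham on 60% fat was the lowest library in all 3.

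Gene lists were read against the 7.53% of 21900 protein-coding genes that had such a region, and no list was tested. Every list but that of the sarcomere and Z-disc lay above that share. The share covers genes with and without a CpG island, and 41.0% of protein-coding promoter windows were CpG-rich. The lists were also chosen with earlier results of these data known, so their shares are a description. Over all regions, 7.98% were 2-fold higher and 11.7% lower for TAC on 10% fat, and 15.5% and 3.11% on 60% fat. For 60% over 10% fat they were 2.01% and 24.8% in sham and 7% and 11.3% in TAC. The 4 medians of the 1813 regions were -0.08, 0.32, -0.57 and -0.18, in the order used for the lists below. The highest share of genes with such a region was in the circadian clock, 9 of 19 genes, or 47.4%. Any region at all was found for 12 of the 19, or 63.2%, against 20.8% of protein-coding genes. Of the 9 regions, the medians of the 4 log2 ratios were -0.26, 0.26, -0.46 and -0.09, in the order TAC over sham on 10% and 60% fat, then 60% over 10% fat in sham and TAC. Regions at 2-fold numbered 1 higher and 1 lower for TAC on 10% fat, 0 and 2 on 60% fat, and 1 and 2 lower on 60% fat in sham and TAC. Signals at Arntl, the activator BMAL1, were 19.4, 16.9, 10.1 and 15.8, and at Per1, a repressor of the loop also assigned Vamp2, 19.4, 13.8, 13.8 and 14. Neither gene was 2-fold apart in any comparison. At Nr1d1, the repressor REV-ERB alpha, also assigned Thra, they were 20.4, 7.06, 8.12 and 10.8, with sham on 10% fat the high library. At Cry2, a cryptochrome repressor also assigned D930015M05Rik, they were 11, 14.8, 19 and 6.5, and at Per3, also assigned Vamp3, 6, 9.38, 10.4 and 3.5. At both, TAC on 60% fat was the lowest and sham on 60% fat the highest library.

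Immediate early and stress genes followed with 16 of 42 genes, 38.1%, in 21 regions. Their medians were -0.45, 0.23, -0.69 and -0.11. On 10% fat 2 of the 21 were higher and 3 lower after TAC, against 7.98% and 11.7% of all regions. On 60% fat 4 were higher and 0 lower, against 15.5% and 3.11%. At Atf3, a stress-induced transcription factor, the upstream region had 17.8, 18.8, 5.88 and 18.5, with sham on 60% fat the one low library. At Junb, of the AP-1 family, in a region with 2 other symbols, the signals were 20.9, 10.9, 12.5 and 9.27, and at Dusp1, a MAP kinase phosphatase, 18.9, 11, 6.43 and 7.86 in the region inside the gene. Both were highest in sham on 10% fat. At Fos they were 13, 13, 11.8 and 8.33, nearly level except in TAC on 60% fat. The regions of Ier2 went in different directions on 10% fat, with log2 ratios of -1.55 at -134 bp and 1.20 at -1199 bp. Hypertrophy and calcineurin genes had 8 of 34, 23.5%, in 9 regions, with medians of -0.17, 0.34, -0.36 and -0.37. On 10% fat 3 of the 9 were higher after TAC and 1 lower, against 7.98% and 11.7% of all regions. At Rcan1, a calcineurin inhibitor that is also induced by calcineurin, the signals were 7.09, 21.9, 7.46 and 10.7 and the log2 ratio 1.502 (counting interval 0.61 to 2.76). At Rcan2 they were 4.17, 11.2, 3.33 and 5.5, again highest in TAC on 10% fat. The region assigned to Cul9, Srf and Ptk7, Srf being the serum response factor, had 13.3, 5.2, 2.5 and 8.7, low in sham on 60% fat.

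Of the metabolic lists, the fatty acid list (uptake and beta-oxidation) covered 34 genes, of which 5, 14.7%, had a region, and Acaa2 itself was not among them. Over these 5 regions the medians were -1.04, 0.54, -1.22 and 0.30. On 10% fat 3 of the 5 were lower after TAC and 0 higher, against 11.7% and 7.98% of all regions. In sham hearts 4 were lower on 60% fat, against 24.8% of all regions. Both comparisons share the library of sham on 10% fat. At Etfa, a subunit of the electron transfer flavoprotein, the signals were 13.1, 4.3, 4.7 and 7.2, and at Cpt2, the inner-membrane carnitine palmitoyltransferase, 15.6, 10.9, 6.43 and 13.6. At Cpt1a, its outer-membrane partner, they were 12.9, 7.67, 5 and 7.73. Sham on 10% fat was the highest library at these 3 and at Mlycd, and TAC on 60% fat was the highest at Acsl1. On 60% fat 1 of the 5 was higher after TAC and 1 lower, against 15.5% and 3.11% of all regions. In the list for the TCA cycle and pyruvate dehydrogenase, 6 of 31 genes, 19.4%, had 7 regions, with medians of 0.05, 0.42, -0.61 and -0.32. At Dlat, the acetyltransferase subunit of pyruvate dehydrogenase, also assigned Dixdc1, the signals were 11.7, 2.31, 3.62 and 10.9. Sham on 10% fat and TAC on 60% fat were the high libraries at Dlat. At Ogdh, the 2-oxoglutarate dehydrogenase subunit, the region 358 bp inside had 13.9, 17.2, 12.8 and 11.6 and that 882 bp inside 7.92, 8.23, 4.85 and 15.3.

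Oxidative phosphorylation had 14 of 72 genes, 19.4%, in 15 regions, with medians of -0.31, 0.52, -0.89 and 0.17. On 10% fat 4 of the 15 were lower and 0 higher after TAC, against 11.7% and 7.98% of all regions. On 60% fat 4 were higher and 0 lower, against 15.5% and 3.11%. Signals at Ndufa4, a respiratory chain subunit, were 16.5, 5.5, 10.2 and 5.5, and at Atp5l, an ATP synthase subunit called in all 4 libraries, 15, 15.5, 10.4 and 12.1. The mitochondrial ribosome and translation list had 12 of 83 genes, 14.5%, in 13 regions, with medians of -0.17, 0.47, -0.19 and -0.33. Glycolysis had 3 of 25, 12.0%, namely Pfkl, Gapdh and Pkm, with medians of 1.01, -0.12, 0.03 and -0.56. At the region assigned to Gapdh, Iffo1 and Ncapd2 the signals were 7, 17.8, 7.17 and 11.8, and at that of Pkm and Parp6 8.18, 17.5, 10.1 and 9.18. Both were highest in TAC on 10% fat. Lipid synthesis had 7 of 34, 20.6%, in 8 regions, with medians of 0.05, 0.56, -0.81 and 0.67. Of these 8 regions, 3 were higher and 1 lower after TAC on 60% fat, against 15.5% and 3.11% of all regions. Degs1 and Sptssa were at the extremes. Acetyl-CoA supply and lysine acetylation had 8 of 31, 25.8%, in 10 regions, with medians of 0.01, 0.40, -0.74 and -0.34. At Acly, the cytosolic ATP-citrate lyase that yields acetyl-CoA, the signals were 8.86, 10.4, 3.71 and 14.7, with sham on 60% fat low. At Hdac2, a histone deacetylase called in all 4 libraries, they were 11.8, 12.9, 9.73 and 10.1. Nuclear receptors and metabolic regulators had 8 of 32, 25%, in 11 regions, with medians of -0.28, 0.11, -0.78 and -0.34. At Klf15, a regulator of cardiac lipid use, the signals were 16.4, 14.8, 12.9 and 8.1, and at Foxo1 13.1, 5.75, 6.12 and 5.5, both highest in sham on 10% fat.

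Lists of housekeeping genes had the following shares and medians, in the same order of comparisons. Cytosolic ribosomal proteins had 18 of 80 genes, 22.5%, in 20 regions, with medians of -0.19, 0.37, -0.80 and -0.13. At Rpl30, of the large subunit, also assigned Matn2, the signals were 10.1, 3.62, 2.75 and 11.1. Sham on 10% fat and TAC on 60% fat were the high libraries there. Translation factors had 15 of 49, 30.6%, in 17 regions (medians -0.15, 0.38, -0.47 and -0.19), and RNA polymerase II and splicing 18 of 59, 30.5%, in 22 regions (-0.19, 0.26, -0.68 and -0.31). RNA helicases and ribosome biogenesis had 17 of 62, 27.4%, in 17 regions (0.27, 0.12, -0.38 and -0.33), and proteasome and ubiquitin 15 of 61, 24.6%, in 16 regions (0.10, 0.47, -0.38 and -0.15). At Ddx3x, an X-linked RNA helicase, the signals were 5, 13.4, 5.57 and 5.14, with TAC on 10% fat the one high library. Chromatin regulators had 15 of 63, 23.8%, in 16 regions (-0.27, 0.36, -0.67 and -0.24), and heat shock and chaperones 7 of 42, 16.7%, in 8 regions (-0.40, 0.29, -0.60 and 0.17). At Hsp90aa1, the stress-inducible Hsp90 called in all 4 libraries, they were 7.76, 11.9, 8.48 and 9.1.

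Of 36 sarcomere and Z-disc genes 1, 2.78%, had a CpG island region with 1 promoter and 9, 25%, had any region, against 7.53% and 20.8% of protein-coding genes. This was Pdlim5, a Z-disc scaffold, with 15.6, 9.7, 7.2 and 9.4 at 839 bp inside the gene and log2 ratios of -0.63, 0.34, -1.02 and -0.04. Calcium handling had 4 of 27, 14.8%, with medians of -0.24, 0.26, -0.46 and 0.25. At Calm2, a calmodulin gene, the signals were 15.6, 7.5, 3.6 and 9.2, and at Camk2d, the cardiac CaM kinase II, 8.57, 8.43, 12.1 and 10.1. Calm2 was highest in sham on 10% fat, and Camk2d stayed between 8.43 and 12.1.

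The promoter windows, of which the 7 stretches shown at the start are parts inside the regions, were rich in CG dinucleotides. A RefSeq window from 250 bases before to 50 after the start was found for 1491 of the 1813 regions, 82.2%, and made 1399 different windows. Of these 1491 regions 1219, 81.8%, overlapped their window. The shares below therefore describe the promoters and not the immunoprecipitated DNA itself. Median GC content was 62.3% with 24 CG dinucleotides, against 56.3% and 13 in all protein-coding windows. CpG-rich windows made up 78.0% of the windows of these regions and 41.0% of all protein-coding windows. That difference follows from the rule, so motifs are also given for the 8710 CpG-rich windows of protein-coding genes.

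Motifs were searched as exact letters on both strands, and a match is not a site. The Sp1-type GC box GGGCGG was in 73.7% of the windows, 46.2% of all protein-coding windows and 79.8% of CpG-rich ones. The ETS-type CCGGAAG was in 24.6%, 11.6% and 19.7%, and CCAAT in 44.7%, 38.2% and 35.0%. TATAAA was in 6.22%, 12.6% and 3.81%. In CpG island regions with several promoters the ETS-type motif was in 29.4% of the windows, CCAAT in 45.4% and TATAAA in 7.70%, and in promoter regions without a CpG island the shares were 19.4%, 42.2% and 8.67%. These shares were not tested against each other, and part of the windows of the 1-promoter regions were themselves not CpG-rich. The E-box CACGTG was in 12.5%, 7.84% and 11.6%, the YY1-type AAGATGGC in 5.86%, 3.05% and 4.72%, the NRF1-type GCGCATGC in 7.29%, 3.52% and 6.00%, and the CRE TGACGTCA in 3.86%, 2.23% and 3.69%. With the windows split by quartiles of mean signal, from lowest to highest, those with CACGTG made up 9.34%, 12.2%, 12.1% and 16.3%, and those with CCGGAAG 19.0%, 25.3%, 25.5% and 26.1%. The Sde2 stretch, whose region was second in signal among those with 1 symbol, holds CACGTG 128 bases and CCGGAAG, on the other strand, 117 bases before the start. The stretch of Stat3, also high in signal, holds neither.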

How the data were processed

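Alignment with BWA to mm10 and peak calling with SICER are listed per the submitters' processing notes; no version is given in the sources used here. Calls were made per library and merged, per the file headers, and the deposited table gives for each merged region the average and peak signal (fragment pileup, or coverage) per library. Scaling between libraries is not stated there. Totals and fragments a region were estimated as average signal × length / 224 and cover 1 library a group. From the deposited signal, log2 ratios were computed after adding 1, in Python 3.11.15 with numpy 2.4.6, pandas 2.3.3, scipy 1.17.1 and matplotlib 3.10.9, and the code was tested on simulated data. Intervals are 95%: exact Clopper-Pearson for counting error of a region's ratio, which uses fragments without the added 1 (PCR copies are not separate molecules, so it covers counting only), and order statistics over regions for medians. Groups follow the sample titles, 0 columns of per-sample values were left unused, and the input was not analysed. Regions with 1 symbol were named by size: 8 a direction and comparison among those whose higher library reached its median over all regions, leaving out predicted genes, 5 a direction for the difference between diets, 10 for level, and in each of 20 lists the highest and the most different; some of these are not reported here. Other regions named in the text were chosen after their values were seen. Regions at 0 in a library entered the counts and medians with the added 1, and no fold is printed for them. The regions and lists were chosen with earlier results of these data known. Alternatives covered the added constant, scaling, peak signal and filters on signal, length, distance, symbols and calls.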

Additional observations from a re-analysis of the deposited data

Results flagged for a closer look

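The TAC-to-sham ratio differed between the diets over the CpG island regions with 1 promoter. The median log2 ratio on 60% fat was 0.41 above that on 10% fat, going from -0.08 to 0.32. With 1 library a group the difference was not tested, and all regions together moved the same way, from -0.14 to 0.32.

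At 9 named regions the ratio had opposite signs on the diets or differed widely, and none of these differences was tested. It was higher on 60% fat at Dcaf10 by 3.61, at Ern1 by 3.15, at Fgfr1 by 3.12, at Tecr by 2.96 and at Acsl1 by 2.85 on the log2 scale. It was lower on 60% fat at Ccdc171, with a difference of -2.71, at Gtf2a1, with -2.30, at Stk11, with -1.89, and at Sertad2, with -1.87. These regions were picked as extremes of the same difference, so its size there is a description. Each was called in 1 of the 4 libraries.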

How the results depend on the processing

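No paired analysis was possible because each group has 1 library, and for the same reason no library could be left out. Of 142 recomputed summary values, 83 stayed close, 54 moved and 5 turned sign; of values of single named regions 320 stayed close and 10, all levels taken from peak signal, moved. Shares are percent of the regions kept, and medians are log2. Centred on the all-region median, the median was 0.053 for TAC on 10% fat, -0.00014 for TAC on 60% fat, 0.0064 for diet in sham and -0.036 for diet in TAC. TAC on 10% fat had 5.96% lower, TAC on 60% fat 6.67% higher and 7.23% lower, and diet in sham 7.28% higher and 5.13% lower. The difference between diets was above 1 in 12.9% and below -1 in 16.5%. With quantile normalization the medians were 0.023, -0.0032, -0.0086 and -0.047 in that order; TAC on 60% fat had 6.84% higher and 6.67% lower, diet in sham 6.73% and 5.30%, and the difference 13.7% and 15.9%. Scaling was thus what turned signs. With 0.1 added, the median for TAC on 60% fat was 0.36, with 4.19% lower. That for diet in sham was -0.62, with 2.26% higher. With 5 added, medians were 0.22 for TAC on 60% fat, -0.40 for diet in sham and -0.13 for diet in TAC; higher and lower shares were 1.93% and 2.04% for TAC on 10% fat, 4.69% and 0.496% for TAC on 60% fat, 0.110% and 7.005% for diet in sham, and 1.32% and 3.42% for diet in TAC, and the difference had 14.2% and 3.36%. Peak signal gave medians of 0.28 for TAC on 60% fat and -0.49 for diet in sham. Where the higher library reached its median over all regions, medians were -0.14, 0.52, -0.76 and -0.34. In longer regions 4.58% were higher for TAC on 10% fat, 1.56% lower for TAC on 60% fat, and 0.624% and 3.02% higher for diet in sham and TAC, and 8.53% were called in 4 libraries. In regions with a call in some library outside the comparison, medians were 0.26 for TAC on 60% fat, -0.43 for diet in sham and -0.13 for diet in TAC; shares were 2.51% higher and 5.27% lower for TAC on 10% fat, 9.95% higher for TAC on 60% fat, 0.949% and 14.3% for diet in sham, and 2.96% and 4.36% for diet in TAC. Beyond scaling and construction, the cause was not tested. Depth limits single regions: the median counting interval of a region's log2 ratio was 2.29 to 2.63 wide in the 4 comparisons.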

Other observations

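Diet differences that held in both surgeries were few. The signal was at least 2-fold higher on 60% fat in sham and in TAC in 7 regions, 25.9% of those higher in sham and 6.67% of those higher in TAC, against 14.1% and 4.04% over all regions. It was lower in both in 31, 7.64% and 16.7%, against 9.98% and 21.8%. These regions were named after their values were seen. Among the 7 were Snai1, Nudt9, Lipt2, Inpp5k, a phosphoinositide phosphatase also assigned Pitpna, and Dpysl3, a cytoskeletal protein of the dihydropyrimidinase family, with signals of 3.12, 1, 10.4 and 7 in the order sham and TAC on 10% fat, sham and TAC on 60% fat. Among the 31 were Smad3, a transducer of TGF-beta, with 17.6, 11.4, 7.12 and 1, Tnfaip3, an inhibitor of NF-kappaB signalling, with 13.4, 15, 3.91 and 5.46, Jag1, a Notch ligand, with 10.2, 10.2, 4.33 and 2.67, and Dyrk1a, a kinase that counters NFAT, with 18.3, 16.7, 8.5 and 4.6. In all 4 both 60% fat libraries lay below both 10% fat libraries. Across the 1813 regions the diet ratios of sham and TAC had a Pearson's r of -0.01. The median counting error of these ratios was 0.58 log2 units a region in sham and 0.55 in TAC. Its part in the low overlap was not tested.

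At Taf3, a TFIID subunit that reads H3K4 methylation, sham on 60% fat was listed at 0, with signals of 6.17, 7.17, 0 and 15.2.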
